A study of Arabidopsis thaliana with 8 samples.

Results

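The comparison set 3-week-old (adult) against 2-week-old (juvenile) shoots of Arabidopsis thaliana, an annual of the mustard family, both kept in darkness in air. Its members were chosen by the source label: the 2 arrays labelled adult control and the 2 labelled juvenile control, 4 of the 8 arrays of the series. Plants of these 4 samples had stood for 24 h in tanks without water, and the other 4 arrays held plants of the same ages submerged for 24 h in the dark. All plants had grown on soil under a 12 h photoperiod, and treatment began when the lights went off, so darkness was common to every group and no array came from plants in light. The labels name no accession, mutant or transgene. They do not say how many plants made up a sample or whether the 2 samples of a group came from separate batches of plants, so the p-values below measure only the spread between these samples, which may be technical.

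A rosette plant passes through a juvenile and an adult vegetative phase before it flowers. In Arabidopsis the microRNA miR156 is abundant in young seedlings and declines with age, which releases its targets, the SPL transcription factors, and these in turn raise miR172, which lowers a group of AP2-like repressors of flowering. Older leaves are also known for stronger resistance to pathogens, much of it tied to the hormone salicylic acid, while cell division and the formation of stomata are activities of young, growing leaves.

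Values were log2 expression per locus and array, as deposited, so a difference of 1 is a 2-fold change. Each of 27826 loci had a value on each array, and the medians of the 4 dark control arrays lay between 6.13 and 6.23. The label shoot was checked against 5 leaf markers. RBCS1A, a small subunit of Rubisco, lay between 12.79 and 12.84 on the 4 arrays, whose highest values were 12.95 to 13.05. Of the 5, both adult arrays lay above both juvenile ones in 3 and below them in 1, and the ages overlapped in 1. Adult minus juvenile differences of the leaf markers ran from -0.19 to 0.40 with a median of 0.13. None of them reached an unadjusted limma p under 0.05. The 6 floral organ markers had a summed linear signal (2 to the power of the value, added over the list) of 119 and 102 in juvenile and 111 and 120 in adult controls, so the ages overlapped. The 8 root markers summed to 2190 and 1830 in juvenile and 1300 and 1400 in adult controls, most of it from PYK10 (10.74 and 10.43 against 9.78 and 9.97), a beta-glucosidase of endoplasmic reticulum bodies in roots and young seedlings. The 6 shoot meristem markers summed to 444 and 374 against 179 and 267. These values touch the results on lower genes and are taken up beside them.

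Adult dark controls differed from juvenile ones in a small set of genes. Among those higher in adult plants were PR1, RING1 and GSTF6, known from defence and stress, and among those lower were MLP34, the nitrate transporter gene NRT2.3 and the cytokinesis motor gene KINESIN-12B. With limma, 15 of 27826 genes (0.0539%) passed an adjusted p of 0.05 and are called here, 11 higher (0.0395%) and 4 lower (0.0144%) in adult plants. On the log2 scale the differences of the 11 ran from 1.19 to 2.98 and those of the 4 from -3.48 to -1.23. In these 15 genes the 2 adult arrays did not overlap with the 2 juvenile arrays, a separation that 46.1% of all genes showed in one direction or the other. The calls rest on a variance shared over all 8 arrays: with only the 4 dark control arrays in the fit, or with any 1 of 8 arrays left out, between 0 and 2 genes were called, and with 2 arrays a side the smallest p of an exact permutation test is 0.333.

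**Figure D1:**
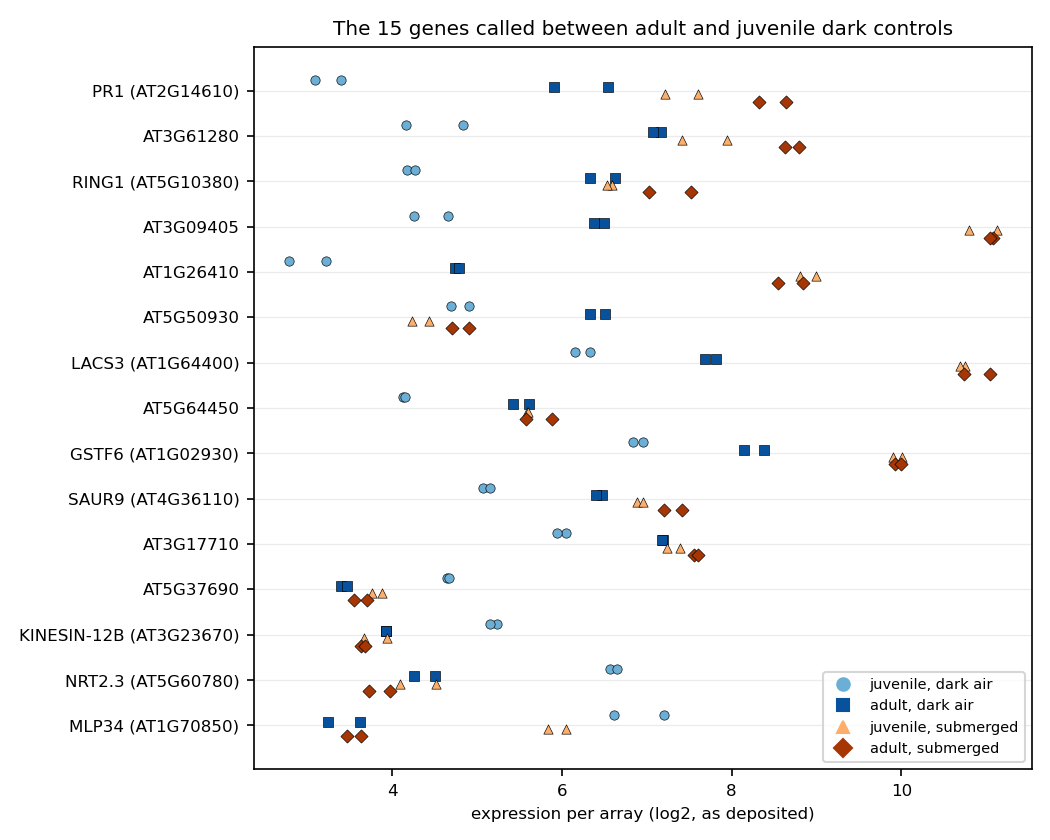
Log2 expression on each of the 8 arrays (horizontal axis) of the 15 genes called between adult and juvenile dark controls, ordered by the difference; circles and squares are juvenile and adult plants in dark air, triangles and diamonds juvenile and adult plants under water, 2 arrays each. Dark blue squares lie to the right of the light blue circles for 11 genes, from AT3G17710 up to PR1, and to the left for 4, from AT5G37690 down to MLP34.

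PR1, which encodes a secreted pathogenesis-related protein and is the usual reporter of salicylic acid signalling, had the largest of the 11 positive differences. It measured 3.09 and 3.40 in juvenile and 5.91 and 6.54 in adult controls. Both adult arrays lay far above both juvenile ones, and the difference was 2.98 (limma adjusted p = 0.042), 7.87-fold. RING1, an E3 ubiquitin ligase of the plasma membrane that takes part in programmed cell death, measured 4.18 and 4.26 in juvenile and 6.62 and 6.33 in adult controls, a difference of 2.25 (limma adjusted p = 0.042). For RING1 the SD was 0.06 in juvenile and 0.21 in adult controls, and the test favours genes with such tight pairs.

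GSTF6 encodes a phi-class glutathione transferase, an enzyme that joins glutathione to stress metabolites. It measured 6.84 and 6.96 in juvenile and 8.15 and 8.38 in adult controls, a difference of 1.37 (limma adjusted p = 0.042). GSTF7, a close relative beside it in the gene order, measured 7.23 and 7.11 in juvenile and 8.31 and 8.80 in adult controls, a difference of 1.39 that missed the threshold (limma adjusted p = 0.0603) and passed it with the intensity trend described below; it was looked up after the values were seen, and probes shared by the pair could mix their signals. LACS3, a long-chain acyl-CoA synthetase that activates fatty acids, measured 6.16 and 6.33 in juvenile and 7.68 and 7.81 in adult controls, a difference of 1.5 (limma adjusted p = 0.042). SAUR9, one of the small auxin-up RNA genes, of which several promote cell expansion, measured 5.07 and 5.16 in juvenile and 6.47 and 6.40 in adult controls, a difference of 1.32 (limma adjusted p = 0.042). In GSTF6, LACS3 and SAUR9 the gap between the ages was several times the gap between arrays of one age, which the call selects for.

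The other 6 higher genes carry only a locus code in the gene table. AT3G61280 measured 4.84 and 4.16 in juvenile and 7.17 and 7.08 in adult controls and differed by 2.62, and its juvenile pair was the widest of the 11 with an SD of 0.48. AT3G09405 differed by 1.99, AT1G26410 by 1.76, AT5G50930 by 1.62, AT5G64450 by 1.38 and AT3G17710 by 1.19. Their limma adjusted p lay between 0.042 and 0.0456. AT1G26410 stands in a row of 5 loci, all measured. Its neighbour AT1G26390 measured 5.66 and 5.45 in juvenile and 7.21 and 7.90 in adult controls, while AT1G26400 between them stayed between 2.61 and 2.84 on all 4 arrays, and AT1G26380 and AT1G26420 differed by 0.88 and 1.07 without passing the test (limma adjusted p = 0.407 and adjusted p = 0.28).

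Of the 4 genes called lower in adult plants, MLP34 had the largest difference. It belongs to the major latex protein-like family, small proteins with a hydrophobic pocket related to the Bet v 1 allergen. MLP34 measured 7.2 and 6.61 in juvenile and 3.62 and 3.24 in adult controls, a difference of -3.48 (limma adjusted p = 0.0323), 11.1-fold. NRT2.3, of the family of high-affinity nitrate transporters, measured 6.57 and 6.65 in juvenile and 4.26 and 4.51 in adult controls, a difference of -2.23 (limma adjusted p = 0.042). KINESIN-12B, a motor protein of the phragmoplast, the structure that builds the new wall between dividing cells, measured 5.24 and 5.15 in juvenile and 3.93 and 3.93 in adult controls, a difference of -1.26 (limma adjusted p = 0.0456). AT5G37690, named by code only, measured 4.64 and 4.68 in juvenile and 3.40 and 3.46 in adult controls, a difference of -1.23 (limma adjusted p = 0.042). In NRT2.3, KINESIN-12B and AT5G37690 the SD of each pair of arrays was at most 0.17, far below the gap between the ages. The call itself selects for such a gap.

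A variance prior that follows intensity and resists outlying genes called 149 genes (0.535%), 108 higher (0.388%) and 41 lower (0.147%) in adult controls, among them the same 15. Of the further 134 genes, all separated between the ages, 97 were higher and 37 lower. The 10 largest of each direction are given here as calls of that setting only; in the fit with a common prior their adjusted p lay between 0.0537 and 0.186. PCR1, a membrane protein of cadmium resistance, measured 5.04 and 4.54 in juvenile and 7.73 and 9.41 in adult controls, a difference of 3.78 (SE 0.51), and the 2 adult arrays had an SD of 1.18. AIG1, a gene induced by recognition of a bacterial effector, measured 4.77 and 5.01 in juvenile and 6.51 and 7.36 in adult controls, and PDF1.2b, a plant defensin, measured 3.93 and 4.79 in juvenile and 6.20 and 6.66 in adult controls. AT4G12490 differed by 2.7. It stands in a cluster in which AT4G12500 differed by 1.98 and AZI1, a gene of systemic defence priming, by -0.11, neither of them called in either setting and both looked up after the values were seen. The remaining 6 of the higher 10 were AT3G15536 (2.31), AT2G34655 (2.19), AT3G28540 (2.08), AT3G22600 (2.08), AT1G26390 (2.00) and AT1G24145 (1.89).

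On the lower side that setting was led by GSTF14, another phi-class glutathione transferase, at 8.06 and 5.18 in juvenile and 2.98 and 2.73 in adult controls. Juvenile replicate 1 stood far above replicate 2 (SD 2.04), and the difference was -3.76 (SE 0.79). AT4G11320 was bright in all 4 arrays and measured 11.77 and 11.27 in juvenile and 8.41 and 9.45 in adult controls. DR4, a gene named for its repression by drought, measured 9.40 and 8.40 in juvenile and 6.03 and 7.0 in adult controls, and SUC6, of the sucrose transporter family, measured 6.87 and 6.88 in juvenile and 4.63 and 5.2 in adult controls. PRB1, a basic relative of PR1 that lies near it in the genome, measured 5.63 and 5.59 in juvenile and 3.34 and 3.99 in adult controls, so this pair of relatives differed between the ages in opposite directions (-1.95 against 2.98). BGLU21, a beta-glucosidase of the same group as the root marker PYK10, measured 6.34 and 5.81 in juvenile and 4.39 and 3.95 in adult controls. The other 4 were AT2G38390 (-2.61), AT5G19257 (-2.39), AT1G13609 (-2.07) and AT5G26260 (-1.91). BGLU22 beside BGLU21 and AT2G38380 beside AT2G38390, looked up after the values were seen, differed by -1.14 and -2.25 and were called in neither setting.

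**Figure D2:**
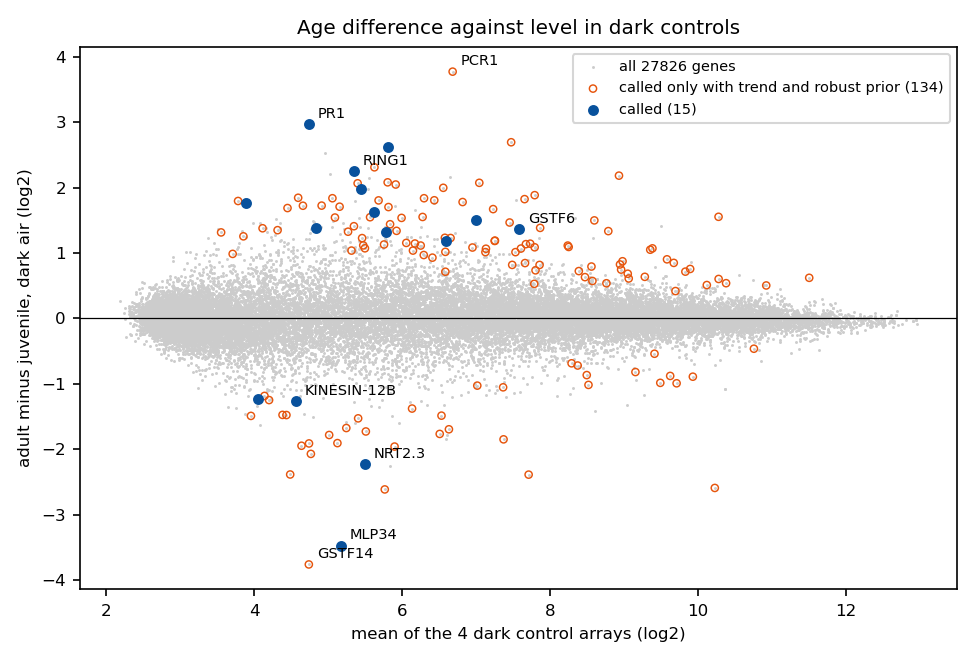
Adult minus juvenile difference in dark air (vertical axis, log2) against the mean of the 4 dark control arrays (horizontal axis, log2) for 27826 genes in grey; filled blue points are the 15 called genes and open orange circles the 134 called only with an intensity trend and robust prior. All 15 called genes lie in the lower and middle part of the range, and the orange circles include brighter genes with small differences such as AlaAT1 (0.42).

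Lists of genes were described next, by counts and medians and with no test of a list. Over all 27826 genes the median difference was 0.00 (log2) and 50.9% were positive. An unadjusted limma p under 0.05 was reached by 5.57% of genes in the higher direction and 4.55% in the lower one, and the ages were separated with adult higher in 23.8% and with adult lower in 22.3%. Counts of list genes below are to be read against these figures. As 0.0539% of all genes were called, a list without a call is the usual case.

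Genes of salicylic acid and pathogenesis-related proteins lay higher in adult controls more often than not. Of 29 genes, 22 differences were positive, the median was 0.37, and 17 were separated upwards against 3 downwards. Without juvenile control replicate 2 the median was 0.17. PR1 was called, and with the intensity trend PR5 as well. PR5, a thaumatin-like protein, measured 5.76 and 6.09 in juvenile and 7.55 and 7.86 in adult controls, a difference of 1.78 (limma adjusted p = 0.115). An unadjusted p under 0.05 was reached upwards by 9 of 29 and downwards by 1. Among the regulators, PAD4, a lipase-like partner of EDS1 in immune signalling, measured 4.38 and 4.02 in juvenile and 5.23 and 5.22 in adult controls, and its partner SAG101 measured 6.95 and 6.82 in juvenile and 7.40 and 7.25 in adult controls. CBP60G, a calmodulin-binding activator of salicylic acid synthesis, measured 6.60 and 6.40 in juvenile and 6.96 and 6.98 in adult controls, and WRKY70, a transcription factor downstream of the hormone, measured 8.28 and 7.93 in juvenile and 8.55 and 8.53 in adult controls. These 4 were separated between the ages, with limma adjusted p from 0.309 to 0.458. All of them are among the 9 with an unadjusted p under 0.05, which favours separated arrays. Other members varied. SARD1, NPR1 and NPR3 were separated upwards, EDS1, NIMIN1 and WRKY38 overlapped, and NPR4 and DMR6 were separated downwards.

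Some markers of the response were named because their differences were among the largest of the list, so they give no ranking against the regulators. PNP-A, a small secreted peptide, measured 5.92 and 5.18 in juvenile and 6.91 and 7.72 in adult controls, NUDT6, a Nudix hydrolase, measured 4.79 and 5.0 in juvenile and 5.95 and 6.16 in adult controls, and AT4G10500 (DLO1), which hydroxylates salicylic acid, measured 4.32 and 4.38 in juvenile and 6.10 and 5.41 in adult controls. Their differences were 1.76, 1.16 and 1.41, with limma adjusted p of 0.230, 0.113 and 0.183. Not every marker followed. BGL2 (PR2), a secreted glucanase, measured 2.87 and 2.64 in juvenile and 2.59 and 2.91 in adult controls, and EDS5, the transporter of the hormone's precursor, measured 5.79 and 5.04 in juvenile and 5.59 and 5.21 in adult controls; in both the ages overlapped. EDS16 (ICS1), the main synthesis enzyme, measured 5.32 and 4.76 in juvenile and 5.21 and 5.73 in adult controls, also with overlap. NIMIN-2, a small protein that binds the receptor NPR1, was the 1 gene lower at an unadjusted p under 0.05, at 6.42 and 5.79 in juvenile and 5.24 and 5.49 in adult controls.

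Jasmonate genes, which act against chewing insects and necrotrophic fungi, had a similar spread. Of 19 genes, 17 differences were positive with a median of 0.47, 13 were separated upwards and 0 downwards, and 9 reached an unadjusted p under 0.05. Without adult control replicate 2 the median was 0.28. None of them was called in the common-prior fit, and PDF1.2b was called with the intensity trend. Its relatives PDF1.2 and PDF1.2c measured 3.97 and 3.40 in juvenile and 6.09 and 6.35 in adult controls and 2.76 and 2.92 in juvenile and 3.69 and 3.92 in adult controls; defensins of this group are near-identical, so their probes may share signal. THI2.1, a thionin, measured 3.09 and 2.82 in juvenile and 4.19 and 5.39 in adult controls, and LOX2, a lipoxygenase of jasmonate synthesis, measured 7.94 and 8.06 in juvenile and 8.64 and 9.0 in adult controls. VSP2, a storage protein induced by wounding, had the lowest difference, at 2.92 and 2.77 in juvenile and 2.63 and 2.77 in adult controls with overlap. Among 5 genes of camalexin, the main indolic phytoalexin, and of 2 related cytochrome P450s, all 5 differences were positive and 3 were separated. PAD3, the last enzyme of camalexin synthesis, measured 3.72 and 3.49 in juvenile and 5.06 and 5.53 in adult controls (limma adjusted p = 0.0874, and adjusted p = 0.0168 with the intensity trend), and CYP71A13, an earlier enzyme, measured 2.52 and 3.23 in juvenile and 3.86 and 4.2 in adult controls. CYP82C2 measured 4.58 and 5.62 in juvenile and 3.79 and 7.33 in adult controls, and its adult arrays lay on both sides of the juvenile ones.

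**Figure D3:**
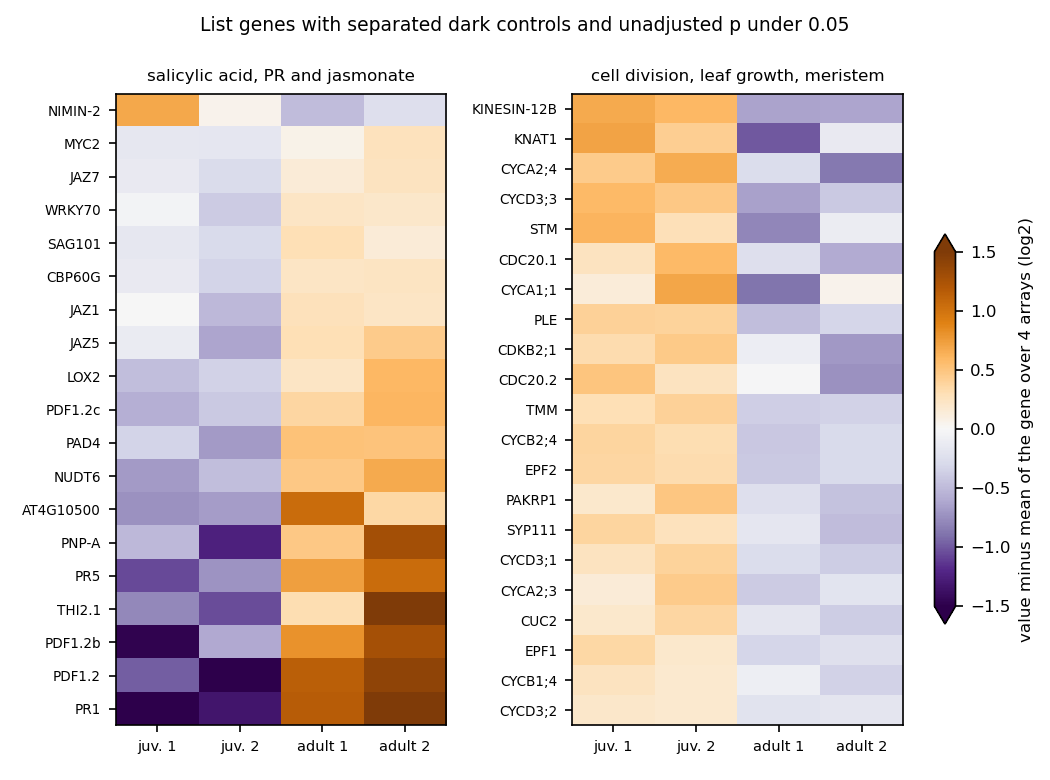
Each row is a gene and each column 1 dark control array; colour gives the value minus the gene's mean over the 4 arrays (log2, orange above and purple below, ends of the scale open). Rows were picked because the ages were separated with an unadjusted p under 0.05, so the contrast between columns is the selection; left are salicylic acid, PR and jasmonate genes, with NIMIN-2 the 1 row lower in adult plants, and right cell division, leaf growth and meristem genes, all lower in adult plants.

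Genes of the vegetative phase change were measured directly, including precursors of the 2 microRNAs. No gene of this list was called. SPL5, a small SPL factor that promotes flowering, measured 5.18 and 5.08 in juvenile and 6.17 and 6.17 in adult controls, a difference of 1.04 (limma adjusted p = 0.0676), and came closest. SPL3 stayed between 11.03 and 11.12 on the 4 arrays and SPL9 between 5.64 and 5.96, so for these 2 targets of miR156 the ages overlapped. The precursor MIR156c measured 6.39 and 6.43 in juvenile and 5.37 and 5.16 in adult controls, a difference of -1.14 (limma adjusted p = 0.416), while MIR156d measured 6.59 and 6.56 in juvenile and 6.52 and 6.95 in adult controls with overlap. MIR172a measured 9.01 and 8.95 in juvenile and 9.31 and 9.55 in adult controls, a difference of 0.45 (limma adjusted p = 0.39). An array value for a precursor locus does not measure the mature microRNA.

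The AP2-like repressors that miR172 targets lay lower or overlapped. SMZ measured 6.27 and 5.71 in juvenile and 4.41 and 5.01 in adult controls and SNZ measured 6.11 and 5.97 in juvenile and 5.54 and 5.28 in adult controls, differences of -1.28 and -0.63 (limma adjusted p = 0.169 and adjusted p = 0.319). TOE2, TOE3 and RAP2.7 (TOE1) differed by -0.46, -0.31 and -0.18 with separated arrays, and AP2 by 0.05 with overlap. Over the 21 genes the median difference was -0.10, with 2 separated upwards and 6 downwards. Of all genes, 23.8% were separated upwards and 22.3% downwards, so the downward count lay near that share. Flowering genes showed FLC, the repressor that vernalization silences, at 5.88 and 5.98 in juvenile and 5.08 and 4.96 in adult controls, a difference of -0.91 (limma adjusted p = 0.151). AGL42, a MADS-box factor of flowering and organ senescence, measured 4.55 and 3.28 in juvenile and 5.86 and 6.41 in adult controls, a difference of 2.22 (limma adjusted p = 0.17), and its juvenile arrays had an SD of 0.90. FT, the mobile flowering signal, measured 2.6 and 2.71 in juvenile and 3.1 and 3.44 in adult controls, close to the bottom of the range, and LFY, a meristem identity gene, measured 3.80 and 3.79 in juvenile and 3.96 and 3.86 in adult controls. AGL20 (SOC1) measured 9.47 and 9.27 in juvenile and 9.50 and 9.93 in adult controls. AGL8 (FUL) measured 5.0 and 4.66 in juvenile and 4.81 and 5.83 in adult controls and AP1 2.98 and 3.39 in juvenile and 3.05 and 3.32 in adult controls, both with overlap. Trichome regulators, whose leaf pattern is a classic mark of the adult phase, had a median of 0.00 over 15 genes and a range from -0.55 (ETC2) to 0.19 (ZFP8), and 1 of 15 reached an unadjusted p under 0.05.

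Of 44 genes of cell division, 31 differences were negative and 13 positive with a median of -0.32. The ages were separated downwards in 23, upwards in 1 and overlapped in 20, and an unadjusted p under 0.05 was reached downwards by 15 and upwards by 0. KINESIN-12B was the 1 call. With the dimmest 50% of all genes removed, the median of those left was -0.12. PAKRP1 (KINESIN-12A), the partner of KINESIN-12B, measured 5.21 and 5.50 in juvenile and 4.77 and 4.56 in adult controls. The cytokinesis gene PLE (MAP65-3), which bundles microtubules, measured 6.45 and 6.43 in juvenile and 5.57 and 5.72 in adult controls. SYP111 (KNOLLE), which fuses vesicles into the new wall, measured 7.21 and 7.10 in juvenile and 6.66 and 6.34 in adult controls. PAKRP1, PLE and SYP111 are among the 15 with an unadjusted p under 0.05. The list members HIK, TES and EDE1 overlapped between the ages. Among regulators of the cycle, CYCA2;4 measured 7.35 and 7.56 in juvenile and 6.63 and 6.03 in adult controls, CYCD3;3, a D-type cyclin that keeps leaf cells dividing, measured 6.88 and 6.78 in juvenile and 5.65 and 5.89 in adult controls, and CDC20.1, an activator of the anaphase-promoting complex, measured 6.17 and 6.5 in juvenile and 5.67 and 5.32 in adult controls. Their differences were -1.12, -1.06 and -0.84, with limma adjusted p of 0.281, 0.191 and 0.479.

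The list also holds replication genes. MCM2 to MCM6 and PRL (MCM7), subunits of the replicative helicase, differed by -0.16 to 0.25, and PCNA1 and PCNA2, the sliding clamps, by 0.34 and -0.21. CYCB1;1, the usual reporter of the transition to mitosis, measured 4.44 and 4.61 in juvenile and 4.36 and 4.64 in adult controls with overlap. CYCB1;3 was the gene separated upwards, at 4.16 and 3.77 in juvenile and 4.36 and 4.28 in adult controls. The 15 genes of leaf growth and the stomatal lineage were all negative, with a median of -0.55 and 12 of 15 separated downwards, 3 reached an unadjusted p under 0.05 and 0 were called; the median of those left without the dimmest 50% of all genes was -0.36. TMM and EPF2, a receptor-like protein and a peptide that space stomata, measured 7.32 and 7.42 in juvenile and 6.64 and 6.67 in adult controls and 6.28 and 6.24 in juvenile and 5.51 and 5.63 in adult controls, differences of -0.71 and -0.69 (limma adjusted p = 0.0924 and adjusted p = 0.321). ANT, an AP2-type factor of organ growth, measured 7.18 and 7.18 in juvenile and 6.47 and 6.42 in adult controls. GRF5, a growth-regulating factor, measured 8.02 and 8.05 in juvenile and 7.29 and 7.48 in adult controls, and its coactivator AN3 measured 8.05 and 7.85 in juvenile and 7.76 and 7.53 in adult controls. MUTE, which ends the divisions of the stomatal lineage, measured 4.68 and 5.30 in juvenile and 4.89 and 3.64 in adult controls with overlap.

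Of the 6 shoot meristem markers 0 were called, 3 were separated downwards and 3 overlapped. KNAT1 measured 8.22 and 7.93 in juvenile and 6.51 and 7.37 in adult controls, STM 6.73 and 6.39 in juvenile and 5.31 and 5.99 in adult controls and CUC2 3.68 and 3.85 in juvenile and 3.31 and 3.11 in adult controls, while CUC1 overlapped (0.33) and WUS and CLV3, which overlapped as well, stayed between 2.43 and 2.84. In whole shoots, fewer cells of a type and less RNA in each cell cannot be told apart, and the part of meristem and young leaf tissue in the lower values of growth genes was not tested.

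The nitrate genes beside NRT2.3 lay close to 0. Over 19 genes the median was -0.06 and NRT2.3 the 1 call. NRT2.4, its neighbour in the gene order, measured 2.71 and 3.36 in juvenile and 3.32 and 3.1 in adult controls, and NRT2:1, the main root uptake transporter, measured 2.7 and 3.05 in juvenile and 2.95 and 2.65 in adult controls. NRT1.7, which loads nitrate into the phloem of old leaves, measured 8.68 and 8.56 in juvenile and 9.06 and 8.98 in adult controls, and LBD38, a repressor of nitrogen genes, 7.56 and 7.42 in juvenile and 7.65 and 8.03 in adult controls. The nitrate reductases NIA1 and NIA2 differed by -0.11 and -0.23. Of 9 major latex protein-like genes MLP34 was likewise the 1 call. MLP28 and MLP31, which precede it in the gene order, measured 6.88 and 6.87 in juvenile and 7.01 and 7.18 in adult controls and 3.25 and 2.90 in juvenile and 3.25 and 2.83 in adult controls, and MLP328 measured 5.69 and 4.1 in juvenile and 3.45 and 3.06 in adult controls, where juvenile replicate 1 stood above replicate 2 (SD 1.12). Root markers are the values to hold beside MLP34, NRT2.3, BGLU21 and GSTF14. Of the 8, 4 were separated downwards and 1 upwards, beside 22.3% and 23.8% of all genes. Their median was -0.23, and -0.07 without juvenile control replicate 1. PYK10 differed by -0.71 (limma adjusted p = 0.302) and CASP1, of the endodermal barrier, measured 5.67 and 5.49 in juvenile and 5.27 and 4.91 in adult controls, while the root hair genes EXPA7 and PRP3 overlapped (0.04 and 0.11). The part of root or hypocotyl tissue in these differences was not tested.

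Genes of dark metabolism, light harvesting and the clock gave no call between the ages after 24 h of darkness. As 0.0539% of all genes were called, lists of 14 to 18 genes would rarely hold one, so its absence says little about them. Of 18 carbon starvation genes 0 were called and 0 reached an unadjusted p under 0.05, with a median of -0.06, although 15 of 18 differences were negative and 10 were separated downwards against 1 upwards. ASN1 (DIN6), an asparagine synthetase, measured 12.50 and 12.58 in juvenile and 12.49 and 12.48 in adult controls, and SEN1 (DIN1) measured 12.52 and 12.54 in juvenile and 12.46 and 12.55 in adult controls. DIN2, a beta-glucosidase, had the largest difference, at 8.66 and 8.88 in juvenile and 7.97 and 8.11 in adult controls. The 14 clock genes had a median of -0.06 and a range from -0.43 (ELF4) to 0.20 (PRR3), with 0 at an unadjusted p under 0.05; TOC1, which peaks around dusk, measured 11.07 and 11.16 in juvenile and 10.98 and 11.05 in adult controls. The 18 antenna protein genes had a median of -0.05 and 15 negative differences. Of them 6 were separated downwards and 2 upwards, beside 22.3% and 23.8% of all genes. The 2 that reached an unadjusted p under 0.05 were CAB3 (-0.37) and LHCB2.3 (-0.33).

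Senescence and hypoxia genes included a few larger differences. Of 17 genes of senescence and chlorophyll loss, 14 were positive with a median of 0.18 and 12 separated upwards, and 5 reached an unadjusted p under 0.05, all higher. YLS9 (NHL10), which also answers to pathogens, measured 3.42 and 3.41 in juvenile and 4.4 and 4.59 in adult controls, a difference of 1.08 (limma adjusted p = 0.139). AT4G11910 (SGR2), of the magnesium-dechelatase family, measured 5.80 and 5.74 in juvenile and 6.41 and 6.53 in adult controls, and NAC042 (JUB1), a regulator of longevity, 4.28 and 4.09 in juvenile and 4.90 and 4.69 in adult controls. SAG12, a protease of late senescence, stayed between 2.74 and 2.88 on all 4 arrays. Of 16 core hypoxia genes, 4 were higher and 2 lower at an unadjusted p under 0.05. AT5G15120 (PCO1), an oxygen-sensing cysteine oxidase, measured 4.09 and 4.22 in juvenile and 4.91 and 5.07 in adult controls, and ACO1, of ethylene synthesis, 5.38 and 5.08 in juvenile and 5.94 and 5.93 in adult controls. ADH1, alcohol dehydrogenase, measured 7.57 and 7.41 in juvenile and 7.07 and 7.05 in adult controls, in the opposite direction, as did SUS4, a sucrose synthase (-0.57). AlaAT1, alanine aminotransferase, differed by 0.42 (limma adjusted p = 0.26) and was called with the intensity trend (adjusted p = 0.0348).

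**Figure D4:**
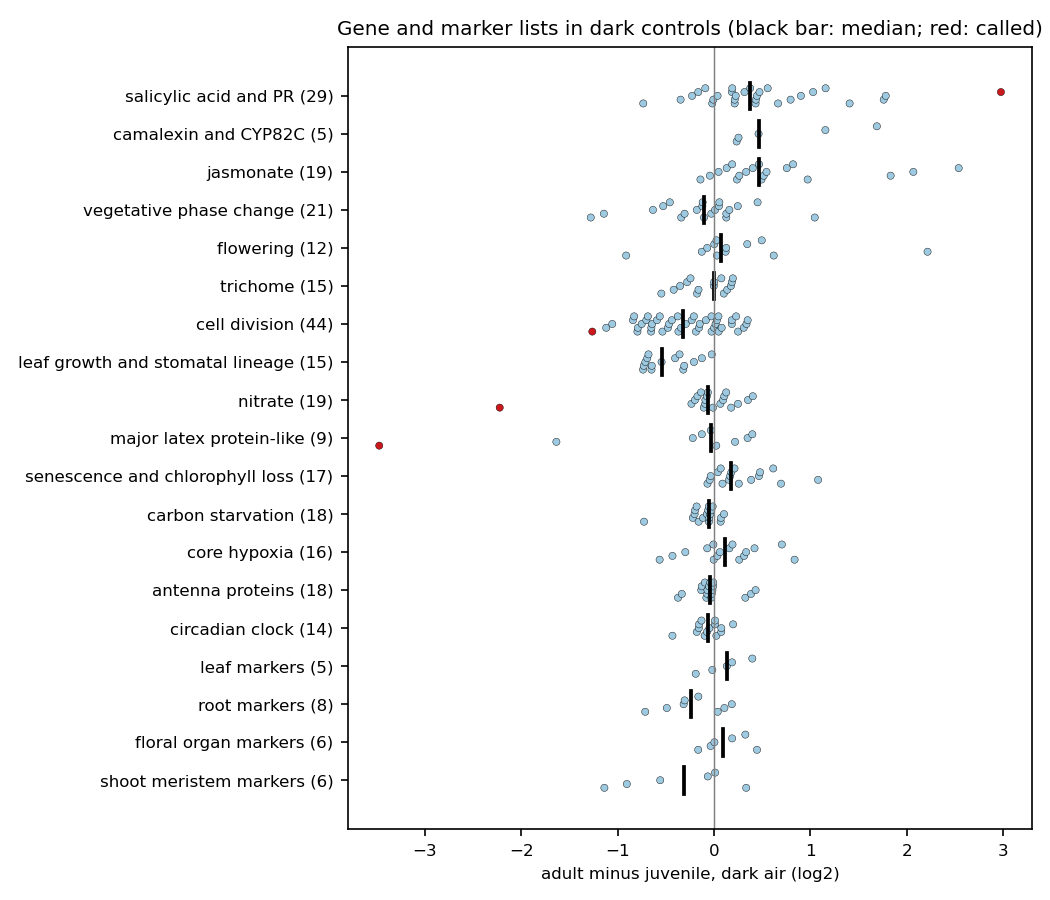
Adult minus juvenile difference in dark air (horizontal axis, log2) for each kept gene of the 15 gene lists and 4 marker lists, with the number of genes in parentheses; black bars are medians and red points called genes. Medians run from -0.55 for leaf growth and the stomatal lineage to 0.47 for jasmonate, and the 4 red points are PR1, KINESIN-12B, NRT2.3 and MLP34.

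The submerged plants gave a second set of adult and juvenile arrays that shares none with the dark controls. There 35 of 27826 genes (0.126%) were called for age, and of the 15 genes called in dark air 1 was among them: MLP34, at 5.84 and 6.05 in juvenile and 3.47 and 3.63 in adult submerged plants, a difference of -2.40 (limma adjusted p = 0.0309). That call was lost with any 1 of the 8 arrays left out. Under water the root marker PYK10 was called lower in adult plants as well, by -1.80 (limma adjusted p = 0.0423). The 8 root markers summed to 976 and 1110 in juvenile and 615 and 603 in adult plants. Their mean log2 value was 4.87 and 4.76 in juvenile and 4.66 and 4.63 in adult submerged plants. Gene by gene, 5 differences were positive and 3 negative, with a median of 0.005. The part of root tissue in the MLP34 difference was not tested. The sign was the same in 14 of the 15 genes called in dark air, and AT1G26410 was the exception (-0.21). The share was 58.2% of all genes, most of which were not selected for a difference. It was 87.3% of the 134 genes called only with the intensity trend. The difference was smaller under water in all 15. Selection for large differences in dark air favours that outcome, so it is no measure of a change with treatment. PR1 differed by 1.07 under water (7.61 and 7.22 against 8.64 and 8.33, limma adjusted p = 0.177) and NRT2.3 by -0.46 (4.51 and 4.09 against 3.73 and 3.97, limma adjusted p = 0.394).

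The change of the age difference with submergence was tested as an interaction. It called 0 of 27826 genes (0%) with limma, and 2030 reached an unadjusted p under 0.05; with the intensity trend it called 28 genes (0.101%), 3 of them among the 15. For the 15 genes the adjusted p of the interaction lay between 0.190 and 0.554 in the common-prior fit. Of the 11 genes higher in adult dark controls, submergence itself raised 10 in juvenile plants (15.5% of all genes) and 9 in adult plants (14.6%) by the same limma fit. Of the 4 lower genes it lowered 4 in juvenile (18.8%) and 0 in adult plants (18.9%). Those comparisons share the dark control arrays with the age comparison, so the values are given side by side only. AT3G09405 rose by 6.51 in juvenile and 4.63 in adult plants and reached 10.80 to 11.12 in both, LACS3 rose by 4.47 and 3.15, and PR1 rose by 4.16 and 2.26. AT5G50930 fell by 0.47 and by 1.62.

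**Figure D5:**
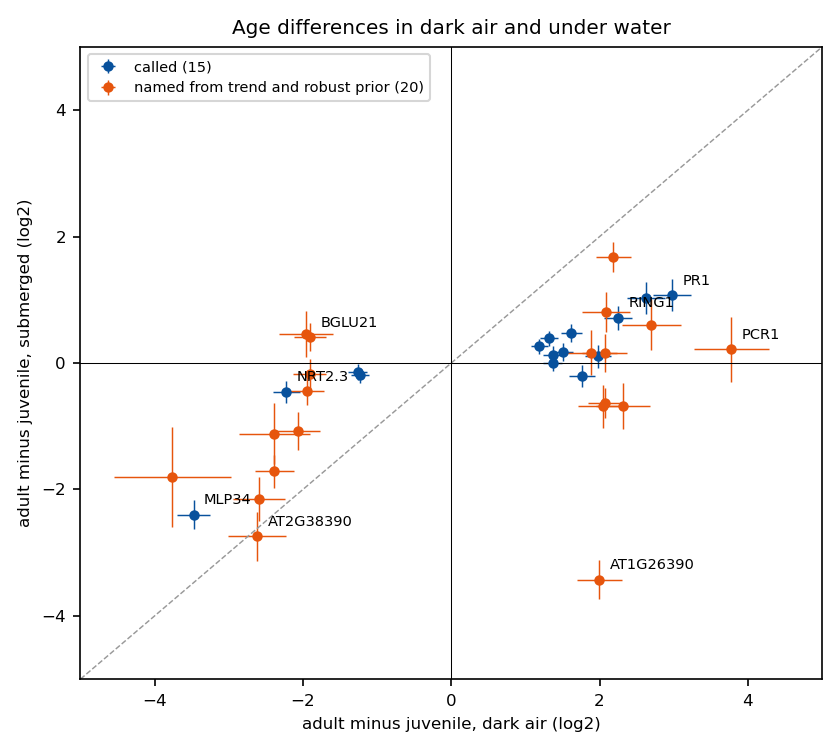
Adult minus juvenile difference in dark air (horizontal axis, log2) against the same difference under water (vertical axis, log2) for the 15 called genes (blue) and the 20 named from the intensity trend and robust prior (orange); bars are standard errors and the dashed line marks equal differences. PR1 and RING1 are positive and MLP34 and NRT2.3 negative on both axes, and AT1G26390 is positive in dark air and negative under water.

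The list medians can be set beside those in submerged plants. Leaf growth and the stomatal lineage were negative in 15 of 15 genes in both treatments, with medians of -0.55 in dark air and -0.66 under water. Cell division had medians of -0.32 and -0.28, with 31 and 35 of 44 genes negative. Salicylic acid and jasmonate genes had medians of 0.37 and 0.47 in dark air and of 0.07 and 0.05 under water, and carbon starvation genes -0.06 and 0.24. The vegetative phase change genes had the same sign in both treatments in 18 of 21 (85.7%), beside 58.2% of all genes and 81.2% of core hypoxia genes. Among the 18 were SPL5 (1.04 and 0.64), SMZ (-1.28 and -1.46), MIR156c (-1.14 and -1.03) and MIR172a (0.45 and 1.13). Others of the 18 lay near 0 in dark air, such as SPL3 (0.01 and 0.26) and AP2 (0.05 and 0.03). Under water MIR156c measured 5.02 and 6.48 in juvenile and 4.73 and 4.72 in adult plants (limma adjusted p = 0.395). Over all genes, 5.46% had arrays of the ages separated in opposite directions in the 2 treatments.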

How the data were processed

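Total RNA of shoots was hybridised to 1-colour arrays, 8 in all. The deposited table holds log2 values per locus, made by the authors with RMA, which corrects background, equalises arrays and summarises probes, per the submitters' processing notes, which also name limma; versions, probe annotation and build are not given in the sources used here. RMA equalises the arrays before probes are summarised, so a shift of most genes would be largely removed. Medians of the deposited values still ran from 6.13 to 6.30 over the 8 arrays. After centring on them, 8 calls were higher and 7 lower in adult controls. No background level was used here, so no gene is called absent. Levels of different genes were set side by side only in the marker sums and in remarks on a gene's place in the range. Probes differ between genes, so those remarks are rough. The number of arrays limits the precision.

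All 27826 loci were fitted with limma 3.58.1 in R 4.3.3 (lmFit, eBayes) over 4 groups of 2 arrays, which leaves 4 residual degrees of freedom, and p-values were adjusted by Benjamini-Hochberg over all loci. A gene is called at an adjusted p under 0.05. The median standard error of the age difference was 0.16. The script was tested on simulated data. Groups came from the source labels. Alternatives were an intensity trend with a robust prior, only the 4 dark control arrays, the replicate number as a block, quantile normalization, median centring, removal of the dimmest 50% of genes, other thresholds and each array left out.

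Named genes are all called genes, the 10 largest of each direction called only with the trend, and in each list the called and up to 4 more with the largest differences, plus members needed for a role, 170 genes with values in all, counting neighbours looked up after the values were seen. A few further list members are named only as separated or overlapping, without values. The members and the 15 gene and 4 marker lists were chosen with earlier results of these data known. Of 304 list entries 296 were kept, 2 not being measured and 6 having no such name in the gene table (RefSeq, TAIR10.1), from which symbols and gene order were taken and which matched 97.9% of loci. No sequence was used here.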

Additional observations from a re-analysis of the deposited data

Results flagged for a closer look

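In 13 of the 170 genes taken up singly the adult arrays lay on opposite sides of the juvenile arrays in dark air and under water; 5.46% of all genes did so. Values here are the age difference under water minus that in dark air (log2), with limma's adjusted p of the interaction, which missed the threshold for each of the 13. The largest was AT1G26390 at -5.43 (adjusted p = 0.143): adult minus juvenile was 2.00 in dark air and -3.43 under water, where the juvenile arrays reached 11.26 and 10.44 and the adult ones 7.40 and 7.45. AT3G15536 gave -2.99, CYP71A13 of camalexin synthesis -2.83, AIG1 -2.73 and AT3G22600 -2.70, each higher in adult plants in dark air and lower under water, with adjusted p from 0.190 to 0.278. BGLU21 gave 2.32 (adjusted p = 0.190), from -1.91 in dark air to 0.41 under water. NAC042 gave -1.14, NRT2.7 -0.70, BCE2 0.51 and HCEF1 -0.34, with adjusted p from 0.279 to 0.772. The cytokinesis gene PLE gave 1.19, the asparagine synthetase gene ASN1 1.09 and the cyclin gene CYCB1;3 -0.52, with adjusted p from 0.278 to 0.671. Most of these genes were named for their difference in dark air, which favours a smaller one under water.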

How the results depend on the processing

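The 15 genes kept their direction in all alternatives that tested them, but the number called moved: 149 with the intensity trend and robust prior, 0 with only the 4 dark control arrays (3533 at an unadjusted limma p under 0.05), 59 without the dimmest 50% of genes (all 8 of the 15 that the filter kept), 0 at an adjusted p of 0.01 and 119 at 0.10. Leaving out 1 array gave 0 to 2 calls, the 2 without juvenile control replicate 2, with 1727 to 3079 genes at an unadjusted p under 0.05. Quantile normalization gave 17 and median centring 15 calls, 12 of them in the 15; the share of higher calls was 73.3%, 64.7% and 53.3% in turn as deposited, after quantile normalization and after centring, which moved the median of all genes to -0.06. Of the 15, the number called for age under water was 1 as deposited and 0 without the dimmest 50%, a filter that removed MLP34 before the test, and was 0 to 0 over the arrays left out; the number with a called interaction went from 0 to 3 with the intensity trend. With the replicate number as a block, 8 genes were called in dark air, 4 of them in the 15, and 0 of the 15 under water. Deviations of same-numbered dark controls correlated at -0.06, so they showed no strong common deviation. That value cannot tell whether same-numbered samples shared a batch, which the labels do not say. Among 170 genes taken up singly, 29 turned sign with single arrays left out, none of them called. Their differences ran from -1.31 to 2.23 for CYP82C2, -0.018 to 1.01 for AGL8, -0.72 to 0.11 for TIP2;3, -0.49 to 0.32 for MCM3, -0.069 to 0.72 for AP3, -0.0076 to 0.77 for LHCA1, -0.49 to 0.28 for NIA1, -0.39 to 0.36 for EDS5, -0.15 to 0.50 for NRT2.4 and -0.053 to 0.55 for MCM6. Narrower ranges were -0.053 to 0.37 for MIR156d, -0.24 to 0.18 for MLP31, -0.20 to 0.21 for AP1, -0.27 to 0.14 for WUS, -0.34 to 0.027 for LHY, -0.33 to 0.028 for MCM2, -0.25 to 0.10 for NRT2:1, -0.28 to 0.054 for AZI1, -0.17 to 0.16 for BGL2, -0.11 to 0.21 for SPL9, -0.15 to 0.16 for MCM4, -0.17 to 0.11 for CYCB1;1, -0.091 to 0.17 for EXPA7, -0.19 to 0.038 for AT1G26400, -0.0026 to 0.22 for PRP3, -0.022 to 0.13 for AP2, -0.036 to 0.056 for SPL3, -0.074 to 0.017 for SEN1 and -0.025 to 0.046 for CLV3. Signs also turned after quantile normalization, to -0.0051 for SPL9, -0.043 for MCM4, 0.016 for SEN1 and -0.0066 for CLV3. Signs also turned after median centring, to -0.05 for SPL3, -0.0091 for SPL9, -0.0052 for AP2, -0.058 for AP1, -0.059 for MCM4, -0.022 for EXPA7 and -0.049 for CLV3. Medians near 0 (phase change, flowering, trichome, nitrate, major latex protein-like and floral lists) turned sign in 1 or 2 of 14 alternatives each. With 2 arrays a group, small differences were not detectable; the cause of these moves was not tested.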
